A study of Strongylocentrotus purpuratus with 8 samples.

Results

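The genes described here are 37 of the 6414 targets on a sea urchin oligonucleotide array, chosen by immune words in the name that the array gives them. Only targets named from a set of embryo sequences (the letters gb_ASBL in the name, 5489 targets) were searched, for words such as lectin, complement, scavenger, Toll, macrophage, interleukin and B cell. The search found 40 targets, and 3 named as selectins were left out. The 37 fell into 9 lectins, 2 complement genes, 9 scavenger receptors and 17 other genes. For 7 of the others the searched letters lie inside another word (such as toll in TOLLOID and lectin in PLECTIN), so these are not immune genes by their names. The array shortens most names, and they are printed as it gives them, with the tested probe in brackets for the 2 targets named SCAVENGER RECEPTOR.

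The RNA came from embryos of the purple sea urchin Strongylocentrotus purpuratus, raised from gametes of outbred wild adults. The 4 morphant samples, 1 from each of 4 cultures with different parents, had been injected as zygotes with a splice-blocking morpholino, a synthetic antisense oligonucleotide, against SpRunt-1, a gene for a Runx-type transcription factor. The control was 1 pool of untreated embryos of the same 4 cultures. Both the injection and the loss of SpRunt-1 set the groups apart, and these cannot be told apart. Morphants and controls were collected as hatched blastulae 18 hours after fertilization at 15 °C. The RNA of each morphant culture shared 2 two-colour arrays with that of the pool, with the dyes exchanged, giving 8 arrays and n = 4 cultures. Every value below is a log2 ratio of morphant over control, averaged over the 2 arrays of a culture, unless it is called a signal. Since the control is a pool, a culture's own ratio holds both its parentage and its response to the injection, and these cannot be told apart. The target named Runt had ratios of −0.21, −0.54, −0.04 and 0.09 in cultures 1 to 4 (mean −0.18 ± 0.27, limma adjusted p = 0.345). Its other probe had a mean of −0.20, with no culture above 0. Where these probes lie against the blocked splice site is not given in the sources used here, so they do not check the knockdown. In whole embryos, fewer cells of a type and less RNA per cell cannot be told apart either.

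Sea urchins defend themselves with innate immunity alone. Lectins bind sugars on other cells and on microbes. Complement C3 is a thioester protein that attaches to foreign surfaces and marks them for uptake. Scavenger receptors, many of which carry repeated cysteine-rich (SRCR) domains, and Toll-like receptors form large gene families in this species. In the embryo, immune effector genes are used mainly by non-skeletogenic mesoderm, which gives rise to blastocoelar and pigment cells, and Runx factors act in blood cell development of vertebrates and flies.

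Of the 37 genes, 31 were bright enough to be tested, well above background in at least 1 RNA on at least 4 of the 8 arrays. The 6 that were not tested were C type lectin l, Galectin-, Scavenger (24hrgi), Scavenger receptor (Mes), Interleukin-1 rece and TOLLOID, each well above background on at most 3 arrays in either RNA. Of these, Scavenger receptor (Mes) had 0.79 in culture 1 and −0.05 to 0.05 in the other cultures, with 0.73 in culture 1 on its other probe, and none of them was tested. Limma's test of the mean ratio against 0, with Benjamini-Hochberg adjustment over all 5481 targets tested, gave an adjusted p under 0.05 for 4 of the 31 (12.9%), against 5.00% of all targets. The lectins GALECTIN LIKE PROTE and ECHINOIDIN CK P and the complement gene Complement C3 fell, 9.68% of the 31 against 2.04% of all targets. B CELL RECEPTOR ASS rose, 3.23% against 2.96%. At an unadjusted limma p under 0.05, 6 genes were higher and 7 lower, 41.9% of the 31, against 35.3% of all targets (15.5% higher and 19.7% lower). The median ratio of the 31 was −0.0031, against −0.025 over all targets, with 15 genes above 0 and 16 below.

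**Figure D1:**
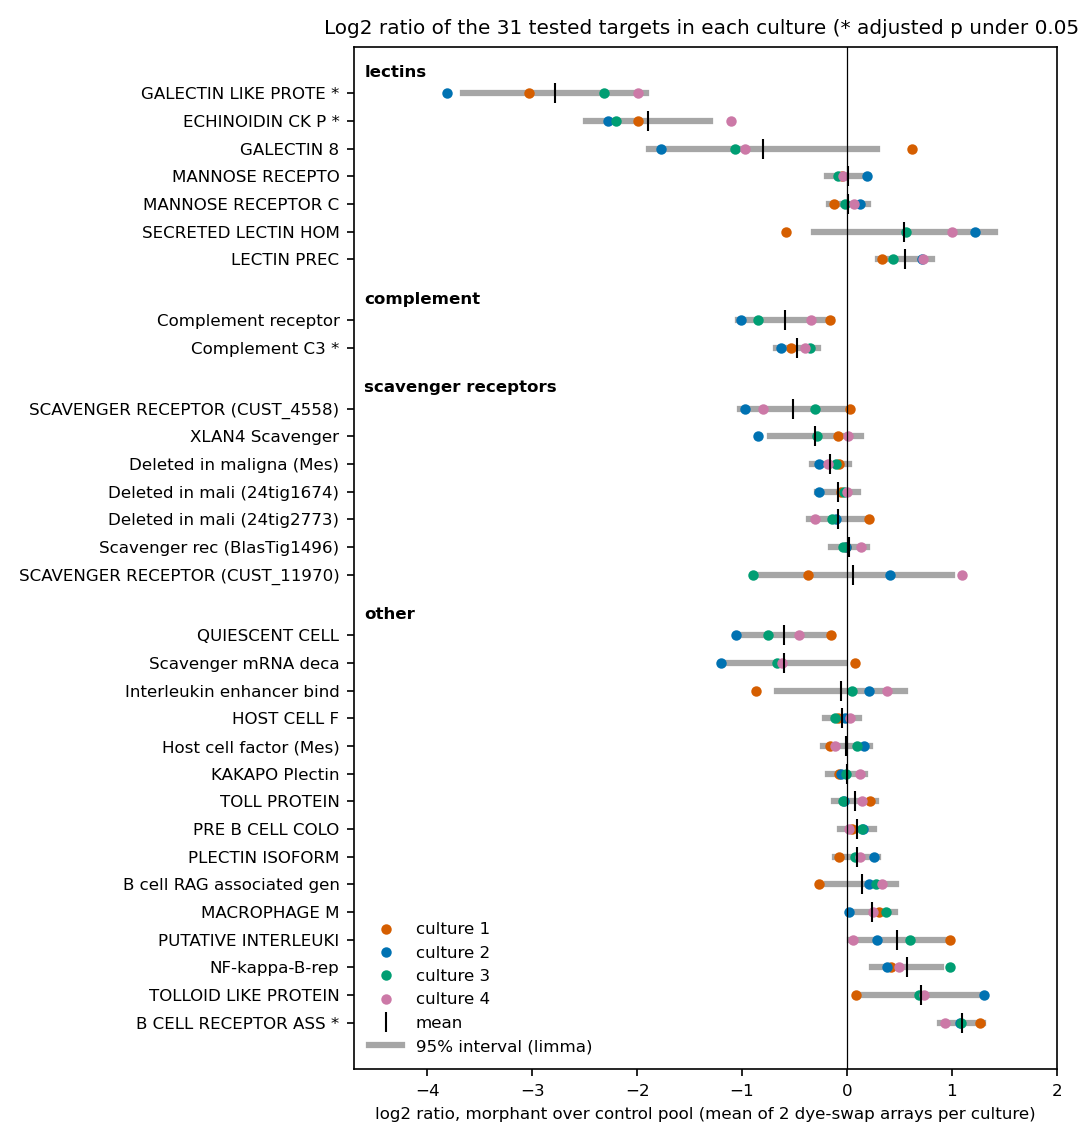
Log2 ratio of morphant over control (horizontal axis) of the 31 tested genes, grouped as lectins, complement, scavenger receptors and other. Points are the 4 cultures, ticks the means and grey bars limma's 95% intervals; the widest departures from 0 are the falls of GALECTIN LIKE PROTE (mean −2.79) and ECHINOIDIN CK P (mean −1.90), while 16 of the 31 means lie below 0.

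Galectins are lectins that bind galactose-containing sugars. GALECTIN LIKE PROTE had processed signals of 1116 and 746.3, 551.8 and 379.6, 1769 and 1355, and 2861 and 2590 in the morphants of cultures 1 to 4 on their 2 arrays, against 6967 to 13790 (median 11920) in the control pool. The highest morphant signal was thus below the lowest control signal. How many of all targets separate in this way was not counted, and every control signal comes from 1 pool. For this gene and those below, such a separation is therefore no evidence beyond the ratios. The ratios were −3.03, −3.82, −2.31 and −1.99 in cultures 1 to 4, a mean of −2.79 ± 0.81 (SD, n = 4), or 0.145 of the control level (95% interval −3.66 to −1.91, limma adjusted p = 0.0315). The gene's other probe showed the fall in the same cultures but smaller, at −1.94, −2.25, −1.54 and −0.97, a mean of −1.67 (limma adjusted p = 0.0415 when this probe stood for the gene).

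Echinoidin is a C-type lectin, a calcium-dependent sugar-binding protein, known from the coelomic fluid of adult sea urchins of another species. ECHINOIDIN CK P had morphant signals of 3795 to 13480 (median 5311), against control signals of 16090 to 29000 (median 24730). All 8 arrays showed the lower signal in the morphant, and the 2 ranges did not overlap. The ratios were −2.00, −2.28, −2.20 and −1.11, with culture 4 nearest to 0, a mean of −1.90 ± 0.54 (SD, n = 4), or 0.269 of the control level (95% interval −2.48 to −1.31, limma adjusted p = 0.0309). The other probe gave −1.85, with −0.60 in culture 4 and −1.99 to −2.60 in the other cultures, and an adjusted p of 0.0587 on its own in limma.

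Of the 7 lectins tested, these 2 fell (28.6%, against 2.04% of all targets) and none rose (against 2.96%). LECTIN PREC, whose shortened name does not say which kind of lectin it is, lay above 0 in every culture, at 0.33, 0.71, 0.44 and 0.72. Its mean of 0.55 ± 0.20 (SD, n = 4; 95% interval 0.30 to 0.81) just missed the threshold (limma adjusted p = 0.0521). The other probe gave 0.40 (limma adjusted p = 0.0825 on its own). LECTIN PREC passed under 8 of 19 other settings, with 0.97 at a background offset of 0 (adjusted p = 0.0282) and 1.14 in the scanner software's own log ratio (adjusted p = 0.0298). In those 8 settings 5.78% to 26.3% of all targets passed, against 5.00% as reported. The share was 14.5% at an offset of 0 and 15.3% in the software's ratio. GALECTIN 8, named after a mammalian galectin with a pair of sugar-binding domains, split the cultures. Its ratio was 0.62 in culture 1 but −1.77, −1.07 and −0.97 in cultures 2 to 4, a mean of −0.80 ± 1.01 (SD, n = 4; 95% interval −1.88 to 0.29, limma adjusted p = 0.226). The other probe gave nearly the same values, at 0.62, −1.75, −1.04 and −0.94. SECRETED LECTIN HOM ran the other way, at −0.58 in culture 1 and 1.22, 0.56 and 1.00 in cultures 2 to 4 (mean 0.55 ± 0.80, adjusted p = 0.283), but its other probe had −0.03, 0.06, 1.20 and 0.30. Without culture 1, GALECTIN 8 was at −1.27 and SECRETED LECTIN HOM at 0.93, and both passed limma's test (adjusted p = 0.0417 and 0.0436), as did 16.2% of all targets, against 5.00% with every culture. The targets MANNOSE RECEPTO and MANNOSE RECEPTOR C, named after C-type lectins of vertebrate macrophages, had ratios of 0.0071 and 0.015, with 95% intervals of −0.19 to 0.20 and −0.17 to 0.20. Their probes were dim, well above background on 7 and 4 arrays in the morphant and on 5 and 2 in the control.

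**Figure D2:**
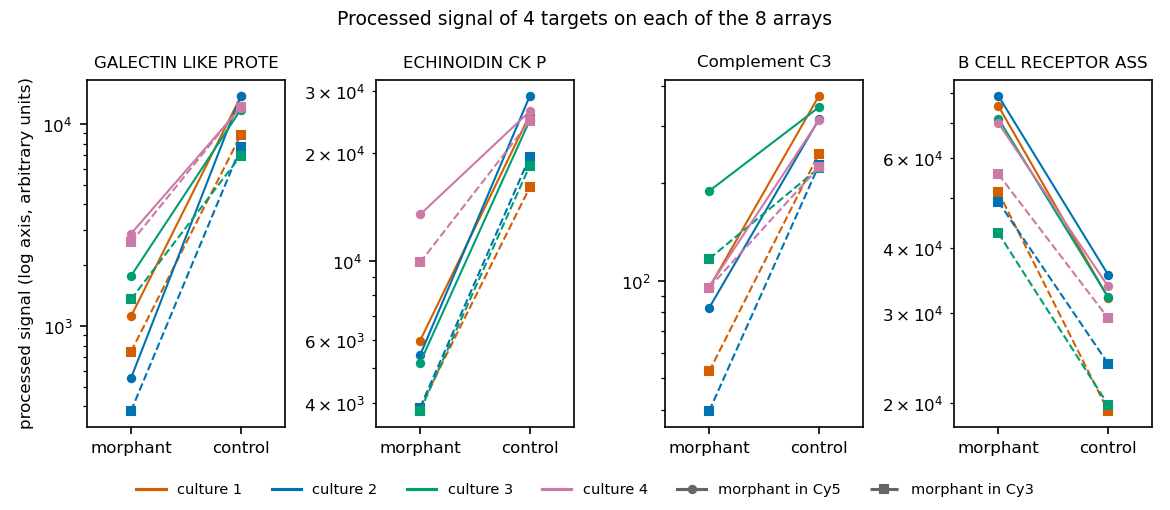
Processed signal (log axis, arbitrary units) of the 4 genes with an adjusted p under 0.05, in the morphant (left) and the control pool (right) on each array, with a line joining the 2 channels of an array. Every line falls toward the morphant for GALECTIN LIKE PROTE, ECHINOIDIN CK P and Complement C3 and rises toward it for B CELL RECEPTOR ASS, and in each panel the 8 morphant signals do not overlap with the 8 control signals. The genes were chosen by their adjusted p, and the share of all targets without overlap was not counted.

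Complement C3 was dim in the morphants. Its processed signals there were 39.67 to 189.5 (median 95.32), against 223.2 to 372.9 (median 280.4) in the control pool, and it was well above background on 7 of 8 morphant and 8 of 8 control channels. The ratios were −0.53, −0.63, −0.35 and −0.40, a mean of −0.48 ± 0.13 (SD, n = 4), or 0.718 of the control level (95% interval −0.68 to −0.28, limma adjusted p = 0.0458). The size depends on the background correction, because an offset of 50 signal units was added before the log and pulls the ratio of a dim gene toward 0. With no offset the mean was −1.20, and in the scanner software's own log ratio −1.67. The other probe gave −0.35 (limma adjusted p = 0.0582 on its own), below 0 in all 4 cultures.

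The other complement gene, Complement receptor, was also below 0 in each culture, at −0.16, −1.01, −0.85 and −0.35, but did not pass. Its mean was −0.59 ± 0.40 (SD, n = 4; 95% interval −1.04 to −0.14, limma adjusted p = 0.0956). Its morphant signals of 264.3 to 1159 reached into the control signals of 790 to 1149; the overlap came from 1 array of culture 1. The other probe, well above background on 5 morphant and 3 control channels, gave −0.13.

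Complement C3 also stands on a list of 4 targets of blastocoelar cells. Of these, Erg, an ETS-family transcription factor, was lower too (−1.16 ± 0.41, limma adjusted p = 0.0458), and 2 targets named Gata had 0.07 and −0.20 without passing. The list was meant to hold GataC, and the names of these 2 do not say which Gata gene each is. Either may therefore not belong to blastocoelar cells. Of 10 skeletogenic targets, 2 were lower and none higher, against 2.04% and 2.96% of all targets. Their means ran from −1.14 to 0.04, with a median of −0.48 (−0.025 over all targets). Neither of 2 pigment cell targets passed in limma. The target named gcm had −2.05, −1.50, −2.33 and 0.36 in cultures 1 to 4. Its mean was −1.38 ± 1.21 (adjusted p = 0.13 in limma), while a second gcm probe read 0.40. PUTATIVE POLYKETIDE had a mean of 0.04 ± 1.33. The share that a change in the number of any of these cell types has in the complement values was not tested. Of 32 tested targets on a list for the hatched blastula, most of them named arylsulfatase, 31 were well above background in both RNAs on at least 4 arrays. The share of all targets that meets this was not counted, so the number does not check the stage.

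None of the 7 scavenger receptors tested passed the threshold, against 5.00% of all targets, and 1 had an unadjusted limma p under 0.05. None passed under any of the 21 other processing settings in which calls were counted. Their means ran from −0.51 to 0.06, with a median of −0.088. SCAVENGER RECEPTOR (CUST_4558), the gene with the unadjusted p, had 0.03, −0.98, −0.31 and −0.80, a mean of −0.51 ± 0.46 (SD, n = 4; 95% interval −1.02 to −0.0011, limma adjusted p = 0.141). Its tested probe was saturated on 4 of 8 morphant and 2 of 8 control channels. The other probe, never saturated, gave −0.16, −0.69, 0.09 and −3.02, so that culture 4 carried most of its mean of −0.94. SCAVENGER RECEPTOR (CUST_11970) had no common direction, at −0.37, 0.41, −0.90 and 1.10 (mean 0.06 ± 0.88, 95% interval −0.88 to 1.00, adjusted p = 0.916). Its other probe had the same sign in every culture, at −0.73, 0.18, −0.32 and 0.67. XLAN4 Scavenger had −0.09, −0.85, −0.28 and 0.0086 (mean −0.30 ± 0.39, adjusted p = 0.246), and −0.44 on its other probe.

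Deleted in malignant brain tumours 1 is a secreted SRCR protein of mammalian mucosa, and 3 targets carry names that appear to be cut from it. Deleted in maligna (Mes) was below 0 in all cultures, at −0.07, −0.27, −0.11 and −0.18 (mean −0.16 ± 0.09, 95% interval −0.33 to 0.02, adjusted p = 0.163), but its other probe gave 0.08. Deleted in mali (24tig1674) and Deleted in mali (24tig2773) had −0.09 and −0.08, with 0.04 and 0.02 on their other probes. The direction of the 3 was therefore not settled. Scavenger rec (BlasTig1496) had a mean of 0.02, with 0.14 in culture 4 and −0.03 to −0.01 in cultures 1 to 3. It was dim, well above background on 5 morphant and 5 control channels of 8, and its other probe gave 0.06.

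**Figure D3:**
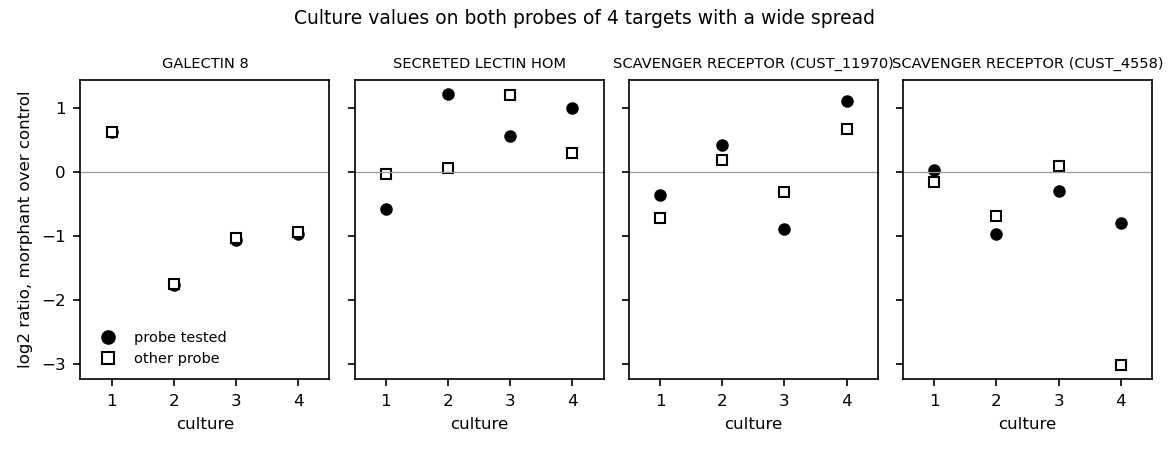
Log2 ratio of morphant over control in each culture on the tested probe (filled circles) and the other probe (open squares) of 4 genes with a wide spread between cultures. The probes lie together in all cultures for GALECTIN 8, keep the same sign for SCAVENGER RECEPTOR (CUST_11970), and part for SECRETED LECTIN HOM and, in culture 4 (−0.80 and −3.02), for SCAVENGER RECEPTOR (CUST_4558).

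Among the 15 other genes tested, B CELL RECEPTOR ASS rose (6.67%, against 2.96% of all targets) and none fell (against 2.04%). Sea urchins have no B cells. In mammals the name B cell receptor-associated protein was given to unrelated proteins, among them prohibitins of mitochondria and a chaperone of the endoplasmic reticulum, and the shortened name does not say which one is meant. Its morphant signals were 42820 to 79090 (median 62870), against control signals of 19340 to 35560 (median 30680), with no overlap. The ratios of 1.27, 1.08, 1.09 and 0.93 lay close together, a mean of 1.09 ± 0.14 (SD, n = 4), or 2.13-fold (95% interval 0.89 to 1.30, limma adjusted p = 0.0253). The other probe gave 1.26 (limma adjusted p = 0.0321).

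The nearest to the threshold after it was NF-kappa-B-rep, whose name may be cut from a repressing factor of NF-kappa-B, the transcription factor of vertebrate and insect immunity. It was above 0 in every culture, at 0.42, 0.38, 0.98 and 0.49 (mean 0.57 ± 0.28, 95% interval 0.24 to 0.90, limma adjusted p = 0.0625), and the other probe gave 0.71. PUTATIVE INTERLEUKI had 0.99, 0.28, 0.60 and 0.06 (mean 0.48 ± 0.40, adjusted p = 0.130), and MACROPHAGE M had 0.31, 0.02, 0.37 and 0.25 (mean 0.24 ± 0.15, adjusted p = 0.129). The other probe of PUTATIVE INTERLEUKI gave 0.28. That of MACROPHAGE M did not keep 1 sign, at −0.29, 0.11, −0.02 and 0.63 (mean 0.11). TOLL PROTEIN, the only tested gene with a Toll name, had 0.22, −0.03, −0.04 and 0.14 (mean 0.07 ± 0.13, 95% interval −0.13 to 0.28, adjusted p = 0.516). It was well above background on 6 morphant and 3 control channels, and its mean was 0.23 with no background offset (adjusted p = 0.436) and 0.51 in the scanner software's log ratio (adjusted p = 0.293). Interleukin enhancer bind, whose mammalian namesakes bind RNA, had −0.86 in culture 1 and 0.21, 0.05 and 0.38 in cultures 2 to 4 (mean −0.06 ± 0.55), with 0.24 on its other probe.

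Of the genes that entered by letters inside another word, 6 were tested and none passed, against 5.00% of all targets. QUIESCENT CELL was below 0 in every culture, at −0.15, −1.05, −0.75 and −0.46 (mean −0.60 ± 0.39, limma adjusted p = 0.0892), but its other probe gave 0.04. Scavenger mRNA deca, which holds the word scavenger but is named like an enzyme that degrades mRNA caps, had 0.08, −1.20, −0.67 and −0.62 (mean −0.60 ± 0.52, adjusted p = 0.133), and 0.15 on its other probe. TOLLOID LIKE PROTEIN, named after metalloproteases that free BMP ligands from their inhibitors, had 0.09, 1.30, 0.69 and 0.73 (mean 0.70 ± 0.50, adjusted p = 0.0992), and 0.62 on its other probe. In these 3 genes culture 1 lay nearest to 0, and without it each passed limma's test, at −0.76, −0.83 and 0.91 (adjusted p = 0.0492, 0.0474 and 0.0456), where 16.2% of all targets passed. The remaining 6 of the 15 other genes, PRE B CELL COLO, PLECTIN ISOFORM, B cell RAG associated gen, HOST CELL F, Host cell factor (Mes) and KAKAPO Plectin, had means of −0.05 to 0.14 and limma adjusted p-values of 0.323 to 0.979. Some were dim. KAKAPO Plectin was well above background on 2 morphant and 2 control channels, HOST CELL F on 3 and 2, and PRE B CELL COLO on 4 and 3. Their means near 0 do not show that the RNA was unchanged.

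Culture 1 was alone in its sign for 8 of the 31 genes (25.8%), against 19.4% of all targets. Limma's F test of the culture terms over the 8 arrays, whose error is that between the 2 arrays of a culture, gave an adjusted p under 0.05 for 18 genes (58.1%), against 61.5% of all targets. A spread between cultures was therefore about as common among these genes as on the array as a whole. All 4 cultures had 1 sign for 14 genes (45.2%), against 44.3% of all targets. Both probes could be used for 26 genes, and in 9 of them (34.6%) the signs of the 2 means were opposite, against 21.3% of all targets with 2 usable probes. For the 4 genes that passed, both probes had the same sign.

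**Figure D4:**
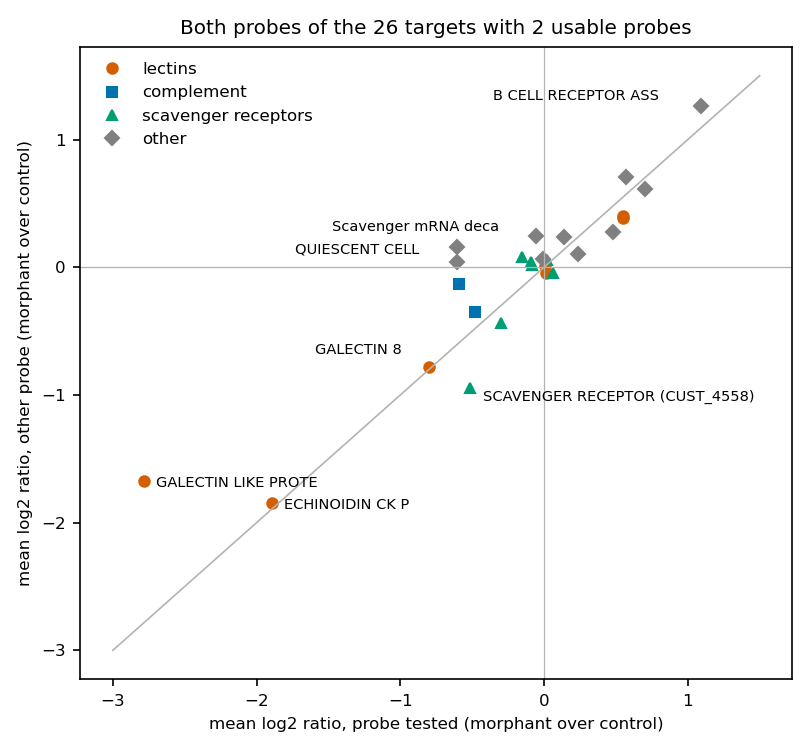
Mean log2 ratio (morphant over control) on the tested probe (horizontal) and on the other probe (vertical) for the 26 genes with 2 usable probes, with the line of equality. GALECTIN 8 (−0.80 and −0.78) and ECHINOIDIN CK P (−1.90 and −1.85) lie on the line, while QUIESCENT CELL and Scavenger mRNA deca, both at −0.60 on the tested probe, lie at 0.04 and 0.15 on the other.

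The 4 calls rested on all of cultures 2, 3 and 4. Without culture 2, 3 or 4 none of the 31 genes passed limma's adjusted threshold, though 9, 6 and 9 had an unadjusted p under 0.05 (29%, 19.4% and 29%, against 22.1%, 22.2% and 24.6% of all targets). The adjusted p of GALECTIN LIKE PROTE was then 0.0870, 0.125 and 0.0910, and of B CELL RECEPTOR ASS 0.0870, 0.122 and 0.0910, with ratios of −2.44, −2.94 and −3.05 and of 1.10, 1.09 and 1.15. Of all targets, 1 passed without culture 2 and 0 without culture 3 or 4 (1213, 1219 and 1346 at an unadjusted p under 0.05). Without culture 1, 4 genes were higher and 5 lower, against 355 higher and 532 lower of all targets (16.2%), and Complement C3 missed the threshold (−0.46, adjusted p = 0.0522). With each array centred on its median instead of a loess curve, which moved the median of all targets to 0.10, B CELL RECEPTOR ASS alone passed (1.62, adjusted p = 0.0487). The 3 genes that fell stayed below 0 there, at −2.20, −1.32 and −0.36 (adjusted p = 0.0657, 0.0890 and 0.123).

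**Figure D5:**
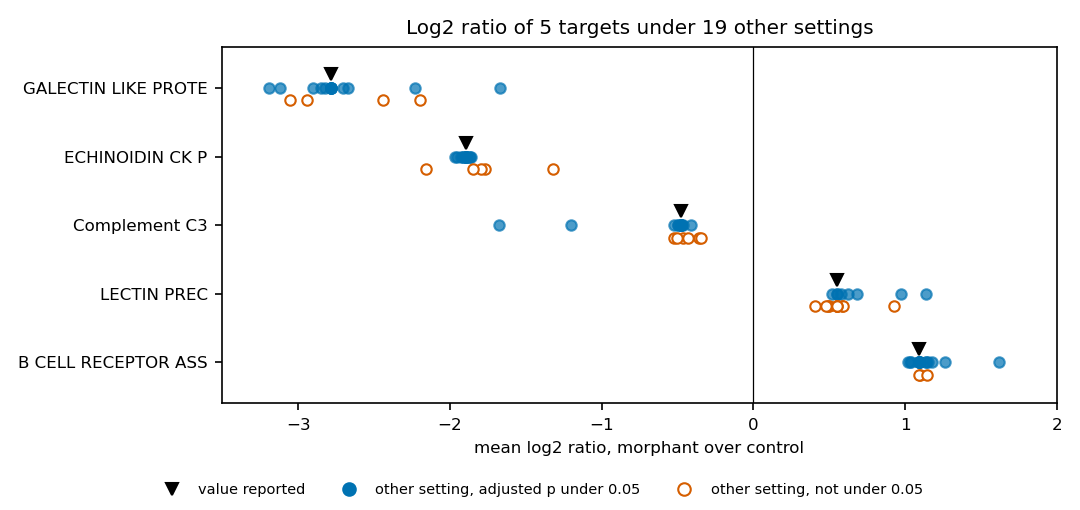
Mean log2 ratio (morphant over control) for the 4 genes that passed and of LECTIN PREC, as reported (triangles) and under 19 other settings, filled where limma's adjusted p was under 0.05 and open where it was not. No value crosses 0. Complement C3 spreads from −1.67 to −0.35 and GALECTIN LIKE PROTE from −3.20 to −1.67. Scaling between arrays, the other filters, the random block, each probe tested separately and outlier spots kept leave these ratios as reported. Their points are therefore no separate evidence on the ratio.

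A list of other immune pathway genes held 21 targets, of which 19 were tested, 1 rose and 1 fell. Of all targets, 2.96% rose and 2.04% fell. LEUKOCYTE SURFA (P19397), named after a surface antigen of mammalian leukocytes, had 0.78, 0.94, 0.50 and 1.08, a mean of 0.82 ± 0.25 (SD, n = 4; limma adjusted p = 0.0416). Its other probe gave 1.13 (limma adjusted p = 0.0739 on its own). Lipopolysaccharide (Mes), whose name is cut after that word, had −0.40, −0.75, −0.45 and −0.57, a mean of −0.54 ± 0.16 (SD, n = 4; limma adjusted p = 0.0458). Its other probe gave −0.21 (limma adjusted p = 0.0747 on its own), and the scanner software's own log ratio was −1.29. At an unadjusted limma p under 0.05, 2 of the 19 were higher and 6 lower, against 15.5% higher and 19.7% lower of all targets, and their median was −0.03. CD151 antigen (MesTig1438), a tetraspanin named here after its values were seen, had the lowest mean of the list, −3.30 ± 2.50, with 0.44 in culture 2 and −4.32 to −4.66 in the other cultures. It did not pass (limma adjusted p = 0.105), its other probe gave −0.28, and without culture 2 it was the 1 target of the array that passed, at −4.54 (adjusted p = 0.0294). Another target named CD151 antigen (MesTig1727), also picked out after its values were seen, was below 0 in every culture. It had −4.10, −2.10, −2.31 and −0.54. Its mean of −2.26 ± 1.46 (SD, n = 4) did not pass either (limma adjusted p = 0.082). The 2 probes of MesTig1727 lay close together, at −2.26 and −2.29.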

How the data were processed

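RNA of 4 morphant cultures and 1 control pool was amplified from oligo dT, labelled and put on 8 two-colour arrays, per the labels' protocols. The scanner files that the authors deposited come from Agilent Feature Extraction 10.7.1.1, as the submitters' processing notes state. Per the file headers each spot has a mean and a local background intensity per channel, a processed intensity (background-subtracted and dye-normalized by the software), and a Cy5 over Cy3 ratio as log10. The authors also deposited log2 ratios per spot. These correlated at 0.968 to 0.988 with the ratios used here, so they already run morphant over control. Their array medians were 0.000503 to 0.0248, and how they were centred is not given in the sources used here.

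The rest was computed in R 4.3.3 with limma 3.58.1 and the data.table package (1.17.8). Background correction was normexp (offset 50) on mean signals and median local backgrounds. Loess followed within arrays, with weight 0 for the 536 control spots. Outlier spots (0 to 32 per array) were dropped, ratios were turned to morphant over control, and dye-swapped arrays were averaged by culture (n = 4). A probe was kept where either channel stood well above background on 4 or more of the 8 arrays, and the brightest kept probe of the array's 12696 stood for its target. Mean ratios were tested against 0 with lmFit and eBayes, two-sided, adjusted by Benjamini-Hochberg over all 5481 targets with a threshold of 0.05. This leaves out the control's own spread, since the control is 1 pool. A loess ratio is relative to other targets of like brightness, and levels of different probes cannot be set against each other. The steps were tested on simulated ratios. Median signals per array were 67.3 to 95.5 in the morphant and 59.9 to 70.8 in the control, over backgrounds of 44 to 51. Between 60.8% and 79.5% of probes were well above background in the morphant and between 51.5% and 77.1% in the control. All arrays lie on 1 slide and were scanned once, so no batch could be tested, and their number limits the precision. The alternatives were other background corrections, scalings, filters, probe choices and variance models, the authors' values, each dye orientation alone, a random block and each culture left out.

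The genes, the list of other immune genes and the markers were chosen with earlier results of these data known. Full values were to be given for genes past the threshold and, in each class, for the 3 with the smallest p and the highest and lowest mean, for Complement C3, echinoidin and Toll names, and for other immune genes past the threshold. Genes with an unadjusted p under 0.05 or an SD over 0.5 were added after seeing the data. The markers were 36 hatched blastula, 2 pigment cell, 4 blastocoelar, 10 skeletogenic and 3 adult coelomocyte targets. Of the last, echinoidin was lower and neither profilin target passed. The array's identifiers were not matched to the RefSeq genes, and no probe sequence was found in the files used here, so none is shown.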

Additional observations from a re-analysis of the deposited data

Results flagged for a closer look

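Scavenger rec (BlasTig1496) had a log2 ratio of morphant over control of 0.14 in culture 4, apart from the −0.01, −0.01 and −0.03 of cultures 1, 2 and 3. The gap was 0.857 of the range of the 4 cultures, which Dixon's test marks as an outlier at the 95% level. The gene was dim, with morphant signals of 30.35 to 136.7. Its other probe had −0.03, 0.03, 0.09 and 0.14 in cultures 1 to 4, without such a gap. It was the only one of the 31 genes so marked, and chance marks about 1 in 20 groups of this size.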

How the results depend on the processing

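No paired analysis was possible because the control was 1 pool. The number of genes that were higher and lower, 1 and 3 as reported, was 2 and 3 with no background subtraction, with a normexp offset of 0, with the scanner software's log ratio, with the stricter filter and with a variance trend and robust eBayes, 3 and 3 with the authors' table and with the morphant in Cy3 only, 1 and 0 with median centring, 1 and 1 with the other probe, 4 and 5 at an adjusted p under 0.10, and 5 and 6 with the culture as a random block. Leaving out each culture gave 0 to 4 higher and 0 to 5 lower. The other settings, whole-word names only included (added after seeing the data), kept 1 and 3. Among them, scaling between arrays, no filter, each probe tested separately and outlier spots kept left the ratios of the called genes as reported. Over all targets the 162 higher and 112 lower became 49 and 7 with median centring, 456 and 340 with an offset of 0, 535 and 304 with the software's ratio, 329 and 252 with the authors' table, 675 and 769 with the block, 387 and 322 with the variance trend, 236 and 177 with the stricter filter, 112 and 68 with no filter, 596 and 628 (22.3%) at an adjusted p under 0.10 and 355 and 532 without culture 1. The median ratio of the genes was −0.0031 as reported, 0.057 with median centring, −0.0698 with the stricter filter, 0.0603 on the other probe and −0.0536 to 0.0246 without each culture. With median centring the scavenger receptor median was 0.083. The count of genes that differed between cultures, 18 of 31 as reported, was 17 to 23 in the other settings where it was taken. It was 17 of 24 with the stricter filter, 20 of 37 with no filter and 22 of 31 at an adjusted p under 0.10. The shares of all targets in these settings are not given here. Of other immune genes 1 was higher and 1 lower as reported, and the counts were 3 and 3 with the software's ratio, 0 and 0 with median centring, 1 and 0 with no filter, 2 and 3 with the variance trend, 2 and 4 at 0.10, and 0 to 2 and 0 to 1 without each culture. Signs turned, at adjusted p-values of 0.162 to 0.998, for Deleted in maligna (Mes) to 0.0831 with median centring and 0.0822 on the other probe, XLAN4 Scavenger to 0.14 with median centring, QUIESCENT CELL to 0.0437 and Scavenger mRNA deca to 0.15 on the other probe, and SCAVENGER RECEPTOR (CUST_11970) to −0.0076 with the morphant in Cy5 only, −0.0481 on the other probe, −0.29 to 0.38 over the cultures left out (−0.0561 without culture 2 and −0.29 without culture 4). They also turned for Interleukin enhancer bind, to 0.0010 with an offset of 0, 0.00185 with the software's ratio, 0.45 with median centring, 0.0384 with the authors' table, 0.0925 with the mean of probes, 0.24 on the other probe and −0.20 to 0.21 over the cultures left out (0.21 without culture 1). The cause of these differences was not tested. Signal near background limits the mannose receptor, Toll and Complement C3 values and the other probe of Complement receptor. It also limits the values of KAKAPO Plectin, HOST CELL F, PRE B CELL COLO and Scavenger rec (BlasTig1496).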
